A study of Mus musculus with 4 samples.

Results

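The odorant-binding proteins and nasal lipocalins *Obp1a*, *Obp2a*, *Obp2b*, *Lcn3*, *Lcn4*, *Lcn11*, *Lcn13*, *Lcn14*, *Mup4* and *Mup5* were followed in the nasal mucosa of young adult and aged mice. They were taken by symbol, through the accession that the array gives for each non-control probe. In the RefSeq gene table *Lcn13* is another name for *Obp2a* and *Lcn14* another name for *Obp2b*, so the 10 symbols stand for 8 genes. No probe matched *Obp2b*, and the remaining 7 genes had 1 probe each, out of 45616 genes tested on the array. That total, and each share of all genes below, also counts array identifiers that matched no gene symbol. Gene expression in nasal mucosa, which the sample labels call olfactory epithelium, was measured on 4 one-color microarrays, 2 for each age. Each array held the RNA of a pool of 5 male C57BL/6J mice, aged 8 weeks (young adult) or 16 months (aged), and neither the titles nor the study's methods name a treatment or a modified allele for them. The study's methods count too few mice for gene analyses to fill the pools of one age with different animals, so these pools may share mice and not be independent, and a *P*-value measures only the spread between them.

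Lipocalins are small proteins, mostly secreted, that fold into a barrel with a pocket for hydrophobic molecules. Those of the nose are made by glands of the respiratory, olfactory and vomeronasal mucosa and released into the mucus, where they bind odorants and pheromones on their way to the sensory neurons or out of the mucus again. In the mouse, the odorant-binding protein genes of the *Obp1* type lie on the X chromosome, several lipocalin genes form a cluster on chromosome 2, and the major urinary protein (*Mup*) genes lie together on chromosome 4. The major urinary proteins are best known from liver and urine, where they carry male pheromones, but some of them are made in nasal and other exocrine glands.

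*Obp2a*, *Obp2b*, *Lcn3* and *Lcn11* lie within one stretch of chromosome 2 in the gene table, with *Lcn4* further along the same chromosome. Stretches of 100 bases from the RefSeq promoter table (GRCm38.p6) are given for *Lcn4* and *Lcn11*, which were lower in aged mice, for *Obp1a* and *Mup4*, whose intervals included no difference, and for *Obp2a* and *Obp2b*, whose promoters resemble each other. They run from 120 to 21 bases before the annotated start in the direction of the gene, and capitals mark TATAAA, the core of the TATA box.
Lcn4 (chr2:26671303-26671402, minus strand): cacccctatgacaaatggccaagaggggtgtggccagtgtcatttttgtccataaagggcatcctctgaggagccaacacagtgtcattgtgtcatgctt
Lcn11 (chr2:25776897-25776996, plus strand): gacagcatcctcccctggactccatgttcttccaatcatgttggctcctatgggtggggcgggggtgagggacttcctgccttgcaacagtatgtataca
Obp2a (chr2:25699954-25700053, plus strand): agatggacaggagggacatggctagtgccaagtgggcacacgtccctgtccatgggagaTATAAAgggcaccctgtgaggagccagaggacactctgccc
Obp2b (chr2:25736887-25736986, plus strand): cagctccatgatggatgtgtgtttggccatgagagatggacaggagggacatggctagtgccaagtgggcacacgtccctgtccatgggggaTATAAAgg
Obp1a (chrX:78091395-78091494, minus strand): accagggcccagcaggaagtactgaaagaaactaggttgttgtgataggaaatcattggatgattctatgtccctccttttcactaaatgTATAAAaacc
Mup4 (chr4:59960688-59960787, minus strand): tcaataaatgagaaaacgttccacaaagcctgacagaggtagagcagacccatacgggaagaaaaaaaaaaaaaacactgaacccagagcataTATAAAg

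The promoter table held 7 of the 8 genes, all but *Mup5*. TATAAA on the strand of the gene began at position -28 of *Obp2b*, -29 of *Lcn3*, -30 of *Obp1a*, -27 of *Mup4* and -61 of *Obp2a*, and it was not in these windows of *Lcn4* and *Lcn11*. Of 32851 promoters in the table, 3.76% held it in the same window and strand. The longest run of bases shared by *Obp2a* and *Obp2b* was 125 bases, starting at position -189 in one and -156 in the other, so that their TATAAA matches lay at the same place relative to the shared run. No other pair of the 7 shared more than 17 bases. TGTTCT, the better-kept part of the androgen and glucocorticoid receptor motif, was searched on both strands from 250 bases before to 50 bases after the start of each promoter, where 19.0% of promoters held it. It was found once in *Obp1a* and once in *Lcn11*, and not in the promoters of the other 5. These matches are descriptions of the letters only.

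All 7 genes were bright on every array. Each probe was well above background on all 4 arrays and none was saturated, and the spot signals were at least 352-fold the local background. Ranked by brightness among the 56605 probes of an array, *Mup4* had rank 2 or 3, *Lcn11* ranks from 6 to 31, and *Mup5*, the dimmest, between ranks 686 and 1482. Signals of different probes cannot be set against each other on an array, so the levels below are compared only between arrays. Quantile normalization gives probes of the same rank the same value. Where a gene held the same rank on both arrays of an age, the 2 levels came within a few units of each other. The very small SDs of some levels (1.6 for *Mup4* and 1.7 for *Lcn11* in young adult mice, 3.7 for *Obp1a* in aged mice) arose in this way and are not a measured spread. The standard errors, intervals and FDRs of these genes after quantile normalization rest in part on such levels. The spot signal before normalization, and the level after scaling to the 75th percentile of each array, are therefore given beside the normalized level.

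The arrays carried the markers of an olfactory mucosa. All 11 mature olfactory receptor neuron (ORN) markers were well above background on every array, *Omp* among them at a level of 293444 in young adult and 325214 in aged mice, as were all 7 sustentacular cell and all 5 Bowman gland markers. Of 8 vomeronasal neuron markers, *Trpc2* had no matched probe, and 3 of the other 7 were well above background on all arrays. *Alb* and *Apoa1*, which define liver, had mean levels under 28 at both ages, and 1 of 5 liver markers was well above background on all arrays. The share of spots well above background lay between 63.1 and 76.8%. Young adult array 1 and aged array 1 shared a slide, which allows one comparison of the ages within a slide.

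Across the 7 genes, 3 were significantly lower in aged mice and 0 significantly higher. A difference is called significant here where limma's moderated test gave a *P* below 0.05 together with an FDR below 0.25, adjusted by Benjamini and Hochberg's method across the whole array. The 3 were *Lcn4*, *Lcn11* and *Mup5*. Of all genes tested, 2.33% were significantly lower and 1.65% significantly higher, 3.98% in all. The median difference of the 7 was -0.33 on the log2 scale against 0.01 over all genes. Among the 745 other genes at least as bright as *Mup5*, 19 were significantly lower (2.55%) and 11 higher, with a median difference of -0.01. After quantile normalization the levels of the ages did not overlap for 6 of the 7 genes, as for 46% of all genes: the aged levels were the lower ones for 5 (21.8% of all genes) and the higher ones for *Obp1a* (24.2% of all genes). The 2 genes that also met the fold change limit of 1.5 and the mean level limit of 100 were *Lcn4* and *Mup5*, a rule that 1.15% of all genes met in this direction. An exact two-sided permutation test of 2 arrays against 2 gives a *P* of at least 0.33 for a single gene. Leaving out young adult array 1, young adult array 2, aged array 1 or aged array 2 left 0 genes of the whole array significant (the FDR of the 3 genes then lay between 0.408 and 0.677). In bulk RNA, fewer secreting cells and less RNA per cell cannot be told apart.

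**Figure D1:**
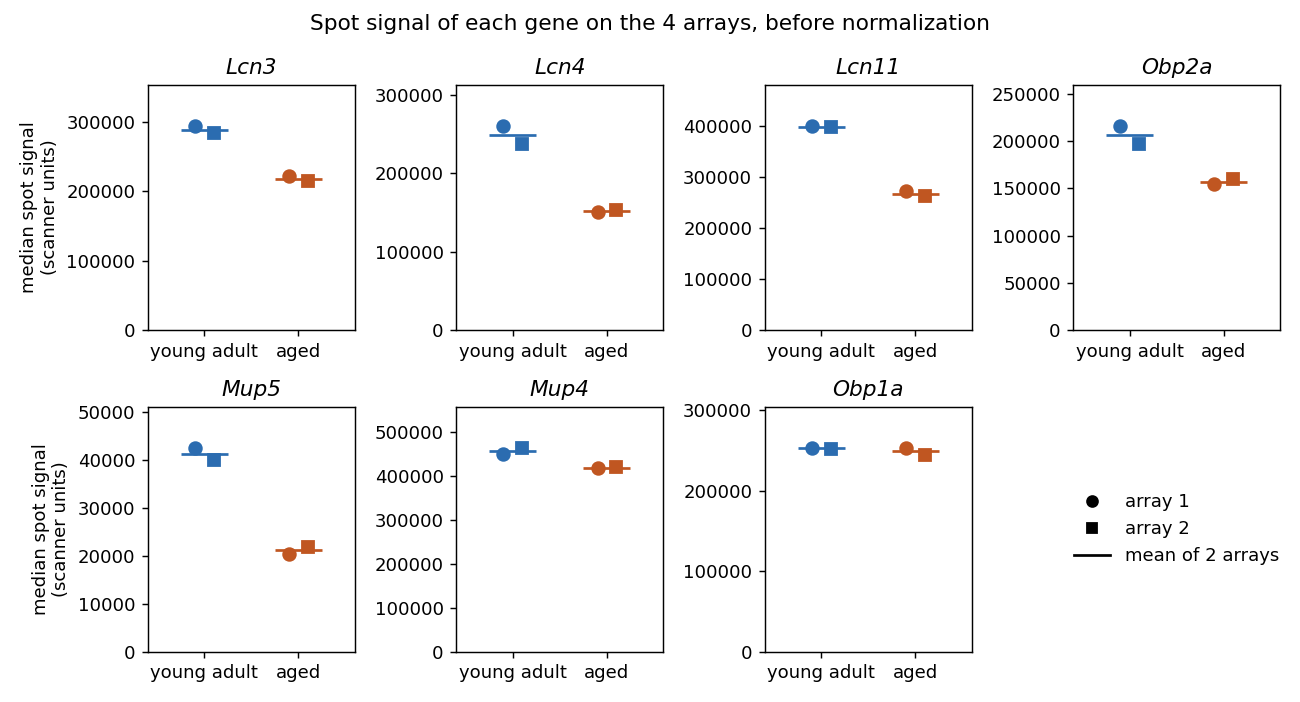
Median spot signal before normalization (y axis, in scanner units, starting at 0) of the 7 genes on the young adult and aged arrays, with array 1 as a circle, array 2 as a square and a line at the mean of the 2 arrays. The 2 aged signals are the lower ones for *Lcn3*, *Lcn4*, *Lcn11*, *Obp2a*, *Mup5* and *Mup4*, and the arrays of *Obp1a* overlap.

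*Mup5*, a major urinary protein gene set apart in sequence from the closely similar central *Mup* genes, had the largest difference of the 7. Its spot signal was 42568 and 40027 from the young adult pools and 20411 and 21927 from the aged pools. The aged signals were close to each other and well under the young adult ones, with no overlap. The normalized level was 39966 ± 1177 (SD, n = 2 pools) in young adult and 21857 ± 621 in aged mice, a log2 difference of -0.87 (standard error 0.080, 95% interval -1.11 to -0.63, FDR = 0.178 by limma). The aged level was 54.7% of the young adult level. After scaling to the 75th percentile the difference was also -0.87 (FDR = 0.206), and between the arrays of the shared slide it was -0.87.

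*Lcn4*, which like *Lcn3* was first described as a secreted protein of the vomeronasal organ and the glands of the nasal septum, was also lower in aged mice. Its spot signal was 261020 and 237700 from the young adult pools and 151305 and 152986 from the aged pools, which lay closer to each other than the young adult pair. The normalized level was 240306 ± 11731 (SD, n = 2 pools) in young adult and 154888 ± 1378 in aged mice, a log2 difference of -0.63 (standard error 0.083, 95% interval -0.88 to -0.38, FDR = 0.203 by limma). The aged level was thus 64.5% of the young adult level. The difference was -0.62 after 75th percentile scaling (FDR = 0.214) and -0.69 within the shared slide.

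*Lcn11*, a lipocalin of the chromosome 2 cluster, had spot signals of 399550 and 396361 from the young adult pools and 271022 and 261662 from the aged pools. The arrays of the ages were far apart, and the gene went from rank 6 on both young adult arrays to ranks 31 and 30 in the aged pools. The normalized level was 394337 in young adult and 271763 ± 2287 (SD, n = 2 pools) in aged mice, a log2 difference of -0.54 (standard error 0.074, 95% interval -0.76 to -0.32, FDR = 0.206 by limma). This is a 1.45-fold difference, just short of the fold change limit. The standard error, interval and FDR rest in part on the equal young adult ranks. After 75th percentile scaling the young adult arrays stood at 359597 and 411997 and the aged arrays at 281191 and 269459. The difference was then -0.48 (standard error 0.108) and no longer significant (FDR = 0.299 by limma). Within the shared slide it was -0.55.

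*Obp2a* and *Lcn3* were lower on both aged arrays, by smaller amounts that did not pass the FDR limit. *Obp2a* encodes an odorant-binding protein that under its other name, *Lcn13*, is also known as a secreted liver lipocalin. Its spot signal was 216268 and 197198 from the young adult pools and 154971 and 159349 from the aged pools. The normalized level was 202252 ± 580 (SD, n = 2 pools) and 160852 ± 3686, a log2 difference of -0.33 (standard error 0.076, 95% interval -0.56 to -0.10, FDR = 0.284 by limma). The spot signal of *Lcn3* was 294772 and 283646 from the young adult pools and 222000 and 215033 from the aged pools, with no overlap between the ages. Its normalized level was 284446 ± 2290 and 229149 ± 2838, a log2 difference of -0.31 (standard error 0.074, 95% interval -0.53 to -0.09, FDR = 0.291 by limma). Both intervals lie below 0, and 7.09% of all genes were lower at an unadjusted *P* below 0.05. Both genes passed the FDR limit under 5 other settings, among them a normexp offset of 50 (FDR = 0.131 for *Obp2a* and 0.140 for *Lcn3*) and the leaving out of dim probes from the table (FDR = 0.0706 and 0.0748). Calls rose over the whole array too: 4585 genes were significant with that offset and 7153 of 29504 without dim probes, against 1817 in the main fit. Within the shared slide the differences were -0.36 and -0.31.

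*Mup4* and *Obp1a* had the smallest differences. *Mup4*, a nasal major urinary protein known for binding a male urinary pheromone, was among the brightest probes of the array, with spot signals of 450100 and 464334 from the young adult pools and 416714 and 420126 from the aged pools. The 2 aged spot signals were the lower ones, but after 75th percentile scaling the arrays overlapped, with 405092 and 482658 in young adult and 432376 and 432664 in aged mice. The normalized level was 438726 in young adult and 426174 ± 17752 (SD, n = 2 pools) in aged mice, a log2 difference of -0.04 (95% interval -0.28 to 0.20, FDR = 0.85 by limma), and without aged array 1 it was 2.84e-06. The aged to young adult ratio of *Mup4* could lie anywhere between 0.822 and 1.15 by this interval. The value of 2.84e-06 is not a measured difference. *Mup4* held rank 2 on both young adult arrays and on aged array 2, so quantile normalization made their levels all but equal.

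*Obp1a*, the odorant-binding protein gene of the X chromosome, had spot signals of 253542 and 251690 from the young adult pools and 252838 and 244604 from the aged pools. The lowest of the 4 signals was on an aged array and the others lay close together, so that the ages overlapped. The normalized level was 244941 ± 4030 (SD, n = 2 pools) in young adult and 255675 in aged mice, a log2 difference of 0.06 (95% interval -0.16 to 0.29, FDR = 0.761 by limma). Its arrays were separate by age after quantile normalization and overlapped after 75th percentile scaling, where the aged arrays were at 262327 and 251893 and the young adult arrays at 228180 and 261614. The interval covers aged to young adult ratios from 0.894 to 1.22. That *Obp1a* differed from the chromosome 2 genes in its response to age was not tested.

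**Figure D2:**
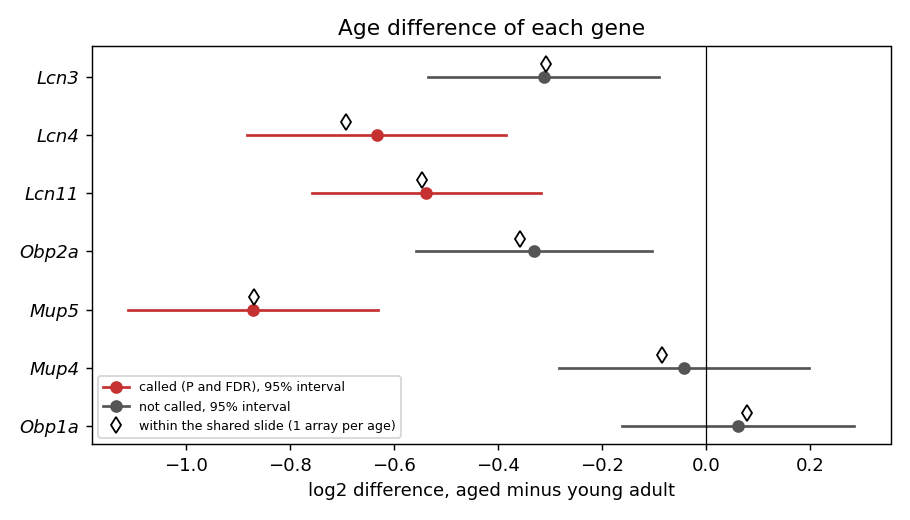
Log2 difference between aged and young adult mice (x axis) for the 7 genes, with the 95% interval of limma's fit as a bar and the difference between the arrays of the shared slide as an open diamond. The 3 significant genes, in red, have differences of -0.87, -0.63 and -0.54, and the intervals of *Mup4* and *Obp1a* include 0.

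Of 45 symbols of other lipocalin family genes, 25 had a matched probe and 17 were well above background on all arrays. Symbols were matched by their current form only, and Obp5, Obp6 and Obp7 of this list are in the gene table as other names of *Obp1a*, of its neighbor *Gm5938* and of *Obp1b*, which had no probe. Of the 25, 1 was significantly lower in aged mice and 1 significantly higher, small counts beside the 2.33% and 1.65% of all genes, and 18 differences were below 0, with a median of -0.15 against 0.01 over all genes. *Ptgds*, the lipocalin-type prostaglandin D synthase, was at 96341 and 98517 from the young adult pools and at 59908 and 63565 from the aged pools, a log2 difference of -0.66 (standard error 0.081, FDR = 0.198 by limma). *Lcn2*, which binds bacterial siderophores and rises in inflammation, was at 2151 and 2195 from the young adult pools and at 4688 and 5068 from the aged pools, a log2 difference of 1.17 (standard error 0.086, FDR = 0.178 by limma). Its 2 probes had differences of 1.21 and 1.12. *Lcn2* thus differed in the direction opposite to that of the nasal lipocalins *Lcn4* and *Lcn11*.

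Of 19 other *Mup* symbols, 9 had a probe, and all 9 had differences below 0, with a median of -0.43. Symbols were counted in their current form. *Mup9* and *Mup16* also stand in the gene table as other names of *Mup18*, and *Mup8*, *Mup11* and *Mup14* as other names of *Mup19*. None of the 9 was significant (FDR between 0.258 and 0.925), 6 were lower at an unadjusted *P* below 0.05 (7.09% of all genes), and for 8 the aged levels were both under the young adult levels (21.8% of all genes). The closely similar *Mup* genes can share signal between probes, and the probe sequences were not used here, so values of single genes are uncertain and the 9 are not independent. *Mup3* had the largest difference of the 9, at -0.78 (95% interval -1.35 to -0.22, FDR = 0.292 by limma), and *Mup21* the smallest, at -0.04 (95% interval -0.46 to 0.38, FDR = 0.925 by limma). Both are averages of a bright and a dim probe, the dim one well above background on 1 array only. Tested on its own among all probes, the bright probe of *Mup3* went from a mean of 13629 to 5836 (log2 difference -1.22, FDR = 0.165 by limma), and that of *Mup21* from 258444 to 204954 (-0.33, FDR = 0.272). In that fit 1 of the 2 probes of *Mup20* (-0.44, FDR = 0.232) and the single probe of *Mup6* (-0.45, FDR = 0.248) also passed the FDR limit, both named after their values were seen. Averaging the probes of *Mup3* and of *Mup21* therefore lessened both differences.

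**Figure D3:**
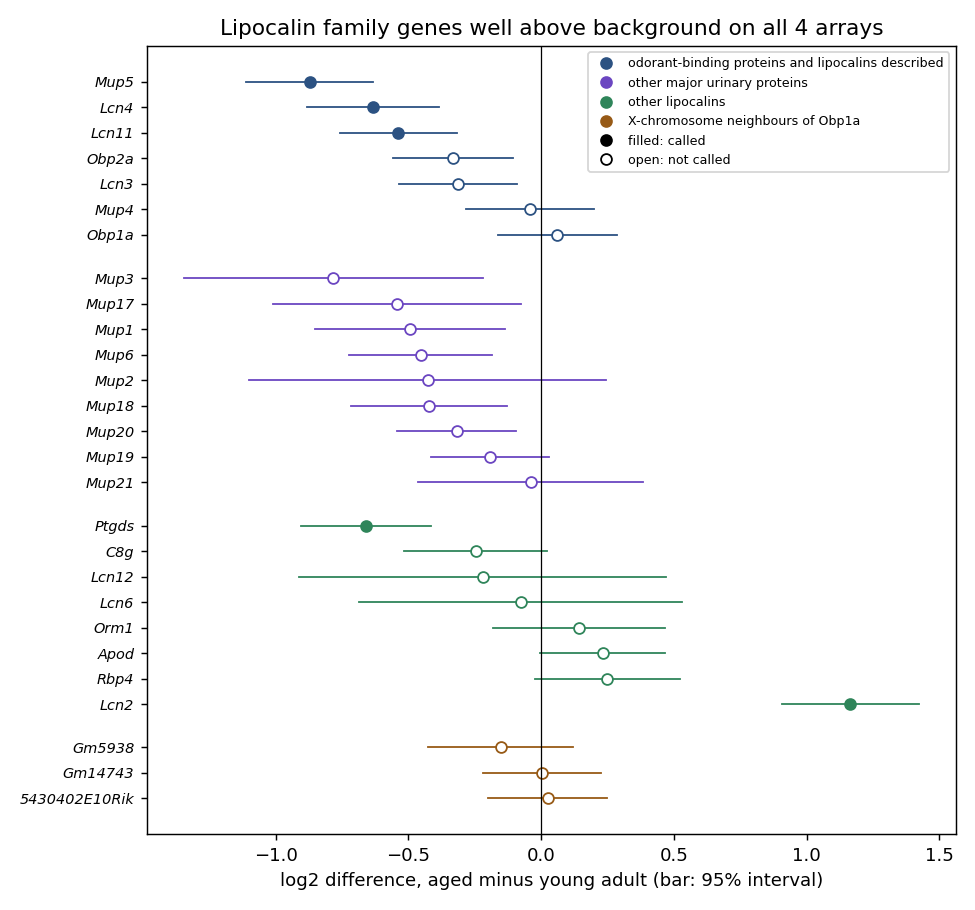
Log2 difference between aged and young adult mice (x axis, bars for 95% intervals) for lipocalin family genes well above background on all 4 arrays, in 4 groups by color, with filled points for significant genes. Of the genes shown, *Mup5*, *Lcn4*, *Lcn11* and *Ptgds* were significantly lower and *Lcn2* significantly higher, and all other *Mup* genes lie below 0 without being significant.

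The receptors that take up or bind lipocalins were not significant in either direction (0 of 5 with a probe, of 6 listed; 1 of the 5 had an unadjusted *P* below 0.05), with a median difference of 0.10. The largest difference was that of *Lrp2*, megalin, from 1355 to 1700 (log2 difference 0.33, FDR = 0.326 by limma), and the smallest that of *Slc22a17*, a receptor of the *Lcn2* product, from 5196 to 4991 (-0.06, FDR = 0.836). With a normexp offset of 50 or no background correction 1 receptor was significantly higher, and with dim probes left out or an intensity trend in the fit 2 were. Significant genes over the whole array, in either direction, numbered 4585, 4029, 7153 (of 29504) and 7124 under these settings, against 1817 in the main fit.

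Among the annotated genes next to the 8 genes, up to 5 on each side, 26 of 51 were on the array, with a median difference of -0.06. The *Lcn* and *Mup* genes among the 26 are also counted with the other lipocalins above. Of the 26, 1 was significantly lower and 0 were higher, beside 2.33% and 1.65% of all genes. It was *Gm13539*, a long noncoding RNA gene near *Lcn11* whose interval overlaps that of *Glt6d1*, at 3975 and 3695 from the young adult pools and at 1377 and 1348 from the aged pools, a log2 difference of -1.49 (standard error 0.085, FDR = 0.168 by limma). *Gm13539* is among the genes that the study itself lists as most downregulated on these arrays, and is no independent evidence. *Bmyc*, which lies between *Obp2a* and *Obp2b* and is named here after its value was seen, went from 3507 to 3153, a log2 difference of -0.15 (FDR = 0.584).

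The X chromosome neighbors of *Obp1a* were also named after their values were seen, because the gene table lists some of them as odorant-binding proteins. *5430402E10Rik*, with the synonym OBP2, was at 319089 and 309727 from the young adult pools and 320691 and 319089 from the aged pools, a log2 difference of 0.03 (95% interval -0.20 to 0.25). *Gm5938*, with the synonym OBP6, went from 63836 ± 4095 (SD, n = 2 pools) to 57384 ± 1277, a log2 difference of -0.15 (95% interval -0.42 to 0.12). *Gm14743*, next in line, was at 262149 and 262658, a log2 difference of 0.00 (95% interval -0.22 to 0.22). As for *Obp1a*, the interval of each of the 3 included 0.

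Markers of gland and other cells differed between the ages to unlike degrees, and their part in the lipocalin differences was not tested. Of 14 exocrine gland markers, 12 were significantly lower in aged mice and 0 higher, with a median difference of -1.43. Of the 14, 8 are among the genes that the study itself lists as most downregulated on these arrays, so their direction was fixed by that choice and is no independent evidence. Of the other 6, 4 were significantly lower, with a median over the 6 of -1.11. They are no independent evidence either, since the list was chosen with earlier results of these data known. The summed level of the 14 was 385997 and 387569 from the young adult pools and 137650 and 134744 from the aged pools. *Pip*, prolactin-induced protein, went from 19294 to 3650, *Dcpp1* from 663 to 302 and *Car6*, a secreted carbonic anhydrase, from 81709 to 37203. *Lpo* and *Amy1*, the 2 markers of this list that were not significant, had differences of 0.05 and 0.17.

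Bowman gland markers had a median difference of -0.07, with 1 of 5 (*Muc5b*) significantly higher and 0 lower, and a summed level from 261833 to 263854 in young adult and from 266788 to 275595 in aged mice. *Sox9* went from 906 to 764 (log2 difference -0.25, 95% interval -0.47 to -0.02, FDR = 0.357 by limma), *Gpx6* was at 186520 and 175801 and *Aqp5* at 24486 and 27629, none of them significant, and 2 of the 5 had an unadjusted *P* below 0.05. The 7 sustentacular cell markers had a summed level from 1037830 to 1038920 in young adult and from 1022940 to 1046960 in aged mice, with 1, *Cyp1a2*, significantly higher. The differences of *Cyp2g1*, *Cbr2* and *Ermn* were 0.16, -0.07 and 0.13. *Ugt2a1*, named after its value was seen, was at -0.38 (FDR = 0.297 by limma), and 2 of the 7 had an unadjusted *P* below 0.05. Respiratory epithelium markers had a median difference of -0.04 and 0 of 6 were significant (1 of 6 had an unadjusted *P* below 0.05), with differences of -0.03 for *Foxj1*, 0.19 for *Bpifa1* and -0.06 for *Scgb1a1*. Mature ORN markers were all above 0, with a median of 0.15 and 1 of 11 (*Stoml3*) significantly higher, and 3 of the 11 had an unadjusted *P* below 0.05. The differences of *Omp*, *Cnga2* and *Adcy3* were 0.15, 0.08 and 0.32.

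Of the vomeronasal neuron markers, 1 of 7 (*H2-M10.3*) was significantly higher and 0 lower, with a summed level from 7295 to 7562 in young adult and from 8052 to 8078 in aged mice. *Vmn2r26* and *Vmn1r51* had mean levels of 24.0 and 27.0 in young adult and 23.8 and 22.9 in aged mice. Of 7 pituitary markers, 2 were significantly higher (*Prl* and *Gh*), with a summed level of 1174 and 1230 in young adult and 9823 and 9302 in aged mice. *Pomc* went from 334 to 397 and was not significant. Of 5 liver markers, 1, *Ttr*, was significantly lower, at a level of 64.9 in young adult and 20.2 in aged mice, and *Serpina1a* went from 172 to 122 without being significant. *H2-M10.3*, *Prl*, *Gh* and *Ttr* are among the genes that the study itself lists as changed on these arrays, and are no independent evidence. *Cyp1a2*, *Muc5b*, *Stoml3*, *H2-M10.3*, *Ttr*, *Lpo* and *Amy1* were named after their values were seen.

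The direction of the 6 lower genes and of *Obp1a* was the same under the 17 other settings and array sets tried, except that *Mup4* passed from below 0 to 2.84e-06 without aged array 1, where its ranks were equal. All of these settings normalize between arrays. Before normalization the *Obp1a* spot signals (253542 and 251690 in young adult, 252838 and 244604 in aged mice) overlapped, each aged array lying below the young adult array of the same number. Only 12 of the 17 could move a difference: the other 5 (most intense probe, each probe on its own, dim probes left out, intensity trend and replicate block) leave the difference of a gene with 1 bright probe as it was and bear on the call alone. The calls moved more than the differences. *Mup5* lay between -0.90 and -0.84, *Lcn4* between -0.69 and -0.53, *Lcn11* between -0.59 and -0.48, *Obp2a* between -0.36 and -0.30 and *Lcn3* between -0.33 and -0.29. The number of the 7 genes significantly lower was 5 with an offset of 50 and 0 with the replicate number as a block. Of all genes, 2478 and 0 were significantly lower under these settings, against 1063 in the main fit.

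**Figure D4:**
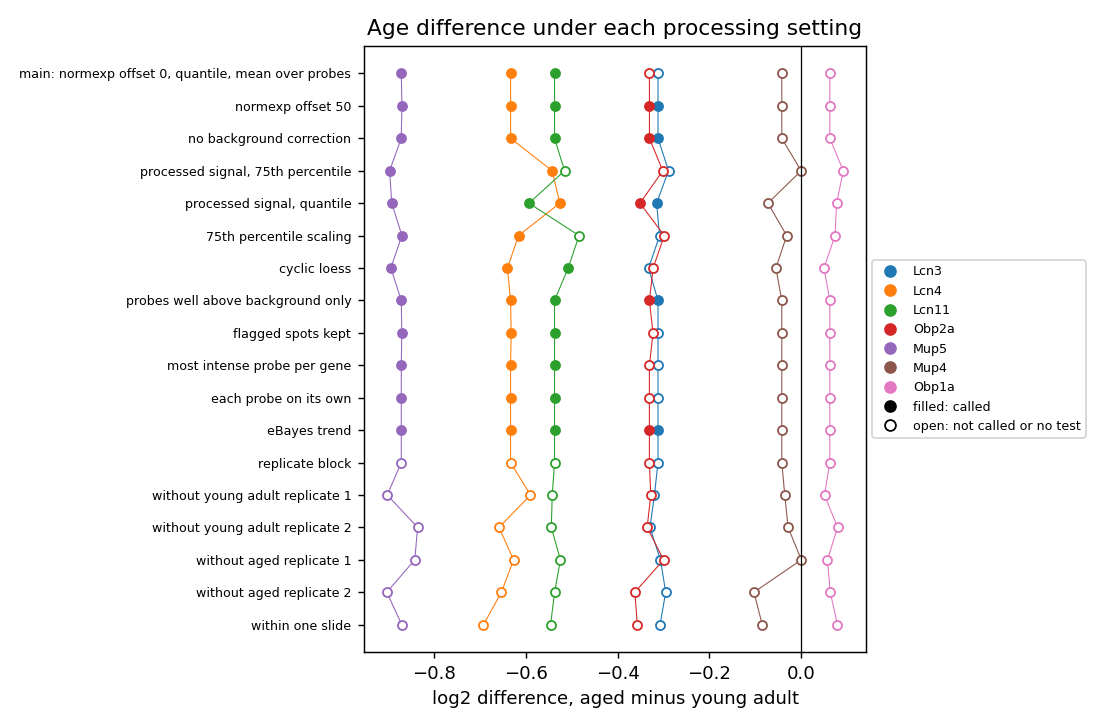
Log2 difference between aged and young adult mice (x axis) of the 7 genes, one color each, under the main setting (top row) and the other settings (rows), with filled points for significant genes. Each gene keeps its place within a narrow range, while the points are open under the replicate block and with any array left out; the bottom row, within one slide, has no test.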

How the data were processed

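The authors hybridized Cy3-labelled RNA to Agilent arrays and extracted spots with Feature Extraction 11.0.1.1. The deposited intensity values per spot (median signal, median local background, processed signal and flags) were not normalized between arrays.

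From the median signal and local background, normexp (offset 0, all 62976 spots) was applied in limma 3.58.1 under R 4.3.3. Control and outlier-flagged spots were left out, spots of a probe were averaged, log2 values were quantile normalized, and probes of a gene were averaged. Accessions were matched to a RefSeq gene table (GRCm38.p6), naming 32994 of 56605 probes. The other probes were kept under the array's own identifiers, each counted as a gene. The array design uses another build, so array values were tied to no coordinates: the gene table gave names and gene order, and promoter coordinates are those of the RefSeq promoter table. A level is a mean normalized intensity. Ages were compared with lmFit and eBayes without covariates (2 residual and 1.38 prior degrees of freedom), with thresholds as in the study's methods. The fit was tested on simulated data. The number of arrays limits the precision.

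The genes and lists were chosen with earlier results of these data known. Named are all 10 symbols, significant other lipocalins, receptors and neighbors, the largest and smallest difference among the insignificant ones well above background, and the first 3 genes of a marker list. A label description naming silica aspiration fits neither the titles nor the study and was not used. Alternatives were other background, normalization, filter, probe, block and array choices.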

Additional observations from a re-analysis of the deposited data

How the results depend on the processing

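Of the 7 genes, 3 were significantly lower as reported. The number was 5 with a normexp offset of 50, no background correction, the quantile-normalized processed signal, dim probes left out or an intensity trend, and 0 at an FDR below 0.05 or with any 1 array left out (range 0 to 0). *Obp2a* (-0.33, -0.33, -0.35, -0.33 and -0.33) and *Lcn3* (-0.31, -0.31, -0.32, -0.31 and -0.31) became significant under those 5 settings in that order. Over the whole array, genes significantly lower rose as well, from 1063 to 2478, 2241, 2346, 3707 (of 29504 tested) and 3517 in that order. At an FDR below 0.05, 0 genes of the whole array were significant, since the smallest FDR of any gene in the main fit was 0.0946. *Lcn11* lost significance with 75th percentile scaling (-0.48) and with the processed signal scaled likewise (-0.52). With 1 array left out, log2 differences ranged from -0.66 to -0.59 for *Lcn4*, -0.54 to -0.52 for *Lcn11* and -0.90 to -0.84 for *Mup5*, none significant, and from -0.10 to 2.84e-06 for *Mup4*, which passed from below 0 to that value without aged array 1. That value arose because *Mup4* held rank 2 on each array kept, which quantile normalization makes all but equal. The cause of the other changes was not tested.

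Other lipocalins significantly lower numbered 7 with an offset of 50, 7 without background correction, 5 with the quantile-normalized processed signal, 2 with cyclic loess, 10 without dim probes, 3 with the most intense probe per gene and 9 with a trend, and those higher 2 with an offset of 50, 3 without dim probes and 3 with a trend. With each probe on its own, 4 probes were lower and 2, both of *Lcn2*, higher. Both were 0 at an FDR below 0.05 and with any array left out (0 to 0). Receptors significantly higher numbered 1, 1, 2 and 2 with the offset of 50, no correction, no dim probes and the trend. Over the whole array, significant genes in either direction numbered 1817 in the main fit and 0 at an FDR below 0.05. They numbered 4585 with the offset of 50, 4029 without correction, 4376 with the quantile-normalized processed signal and 2332 with cyclic loess. Without dim probes they numbered 7153 of 29504, with the most intense probe per gene 2415 and with the trend 7124. With each probe on its own, 2545 of 56605 probes were significant.

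With the replicate number as a block, the differences of *Lcn4* (-0.63), *Lcn11* (-0.54) and *Mup5* (-0.87) had an FDR of 0.433, the smallest of any gene, and the counts of the 7 genes and of other lipocalins, lower and higher, were 0. The labels give the numbers no meaning, and deviations of same-numbered arrays correlated at -0.08, so the arrays were not taken as paired. The arrays numbered 1 shared a slide and had median backgrounds of 67 and 63, and those numbered 2, on different slides, had 32 and 39. The slide as a random block could not be fitted, since no correlation could be estimated for any of 2000 genes tried.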
